A study of Homo sapiens with 2 samples.

Results

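The strong background edits of the enzyme-only library described here were 1696 cytosines, out of 213041 distinct C-to-U positions listed in the deposited tables of both libraries. A position was taken if the enzyme-only table gave it at least 3 converted reads and an edit fraction under 10%, if it was missing from the RBFOX2 table, and if its gene was listed in both tables. The rule leaves out 1491 enzyme-only sites of the same strength that the RBFOX2 table also listed. It also leaves out 66 in genes listed only in the enzyme-only table. These 1696 sites were 1.98% of the 85689 enzyme-only sites that met the other conditions, and they lay in 735 of the 8203 genes listed in both tables, 8.96%. Converted reads and absence from the RBFOX2 table chose the sites, so both are given below as description and nothing is tested with them.

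Methanol-fixed HEK293T cells, a human embryonic kidney line that the labels also write as HEK293XT, were treated in situ with recombinant APOBEC1 fused to a nanobody against rabbit IgG. The RBFOX2 library came from cells first given a rabbit antibody against the splicing regulator RBFOX2, which binds UGCAUG, and the enzyme-only library from cells without that antibody. RNA was sequenced as full-length PacBio cDNA, with 1 library per group, so no difference has a replicate check and every comparison is between these 2 libraries. No library without the enzyme was analysed here, so conversions made by APOBEC1 and conversions of any other origin cannot be told apart. The enzyme-only table held 103684 sites in genes with 2233600 reads in all, and the RBFOX2 table had 121930 sites in genes with 2431345 reads. All 8 markers chosen for HEK293T, among them VIM, KRT8 and NEFL, had a listed site in 1 or both tables. Of 8 markers of differentiated kidney only LRP2 had one, at 12 enzyme-only gene reads, and none of 3 blood and 3 fibroblast markers had any. A gene enters these tables through an edit, so an unlisted marker is not thereby unexpressed.

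APOBEC1 is a cytidine deaminase that turns cytosine into uracil, and its classical substrate is the apolipoprotein B transcript of intestine and liver. There an AU-rich surrounding and a mooring sequence 3' of the cytosine, bound by a cofactor, place the enzyme. Away from such a substrate the enzyme prefers a cytosine that follows an adenine or a uracil, in flexible, AU-rich RNA. An untethered enzyme in a fixed cell can act on any accessible transcript, which is why an enzyme-only control accompanies a targeted library.

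The neighbouring bases of sites with the most converted reads can be read directly, and not every window is AU-rich. Each of the following 25-base windows is written 5' to 3' on the transcript strand, as DNA letters of hg38, with the edited cytosine and its immediate neighbours in capitals. They come from the coding sequence or 3'UTR of abundant transcripts.
NPM1: acaggttgtgaACTaaaggccgaca
YBX1: acttgatttttTCAaaaaagtcaac
H3-3B: ttctgtaaaatACTttggtttaatt
RAN: gtatgagcacgACTtagaggtattg
HNRNPA2B1: gctttggggatTCAcgtggtggcgg
C1QBP: gggtggacaacACTtttgcagatga
ARF1: cctgcggccagGCTttttatttaat
In the first 6 the edited cytosine follows A or U, and ARF1 was chosen for contrast because G precedes it there. The windows lie at chr5:171390047-171390071 (plus strand, NPM1, coding sequence), chr1:42702288-42702312 (plus, YBX1, 3'UTR), chr17:75778537-75778561 (minus, H3-3B, 3'UTR), chr12:130875764-130875788 (plus, RAN, coding sequence), chr7:26196448-26196472 (minus, HNRNPA2B1, coding sequence), chr17:5433100-5433124 (minus, C1QBP, coding sequence) and chr1:228098160-228098184 (plus, ARF1, 3'UTR).

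The NPM1 site, in the transcript of the nucleolar chaperone nucleophosmin, had 16 converted reads of 3862 gene reads, a fraction of 0.414% (exact 95% interval 0.237 to 0.672). The YBX1 site, in the transcript of a cold-shock-domain RNA-binding protein, had 16 of 5272, or 0.303% (0.174 to 0.492). The H3-3B site, in a gene of the histone variant H3.3, had 15 of 5280, or 0.284% (0.159 to 0.468). RAN, the GTPase of nuclear transport, had 13 of 4706 at its strongest site, or 0.276% (0.147 to 0.472). The 12 sites with the most converted reads, 11 to 16, lay in these 4 genes and in HNRNPA2B1, which held 5 of them, and several more sites tied at 11. These are low fractions in very deep genes, and their intervals overlap one another.

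Missing from the RBFOX2 table did not mean free of conversion there. The tables list no fraction of 0.2% or less, and the reads of the whole gene are the denominator, so the fewest converted reads that can be listed rise with gene depth. At the NPM1 site, with 4867 RBFOX2 gene reads, up to 9 converted reads could have gone unlisted. At the strongest HNRNPA2B1 site the enzyme-only count was 13 of 4913 and up to 10 of 5184 could have gone unlisted. Over all 1696 sites, 230 lay in genes where an unlisted position had 0 converted RBFOX2 reads, 497 where it had at most 1, 569 where it had at most 2 and 400 where the limit was 3 or higher. At 1188 sites, 70.05%, both libraries had the same limit, and at 499 the limit was higher in the RBFOX2 library.

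**Figure D1:**
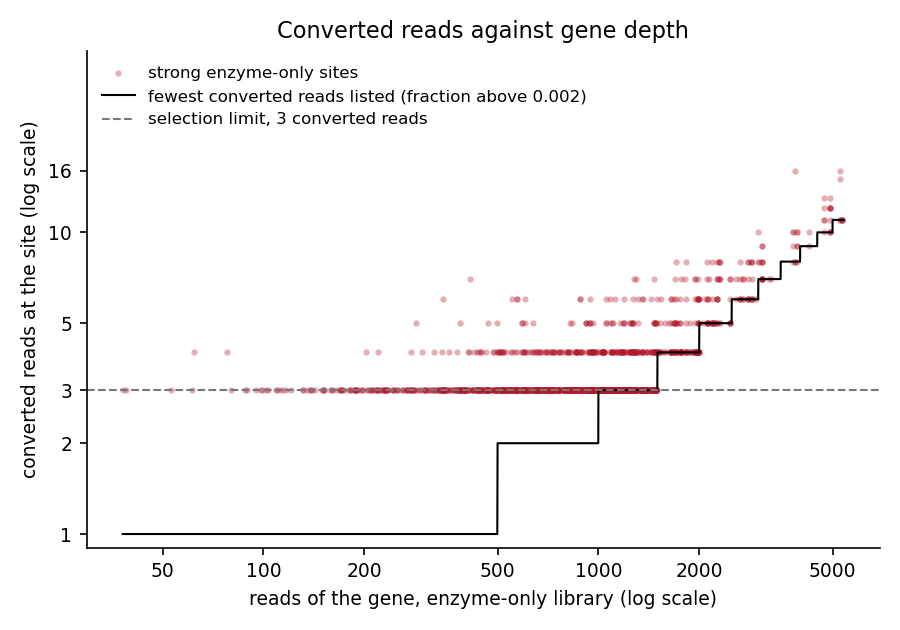
Converted reads at each of the 1696 sites (vertical axis, log scale) against the reads of its gene in the enzyme-only library (horizontal axis, log scale). The black step is the fewest converted reads the table lists at that depth and the dashed line the limit of 3, and from 1500 gene reads upward the step lies above the limit of 3 and sets the lower edge of the points.

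Most of the sites rested on few reads. There were 1187 sites with 3 converted reads, 277 with 4, 203 with 5 to 9 and 29 with 10 or more, up to 16. The edit fraction had a median of 0.336% and ran from 0.201% to 7.89%, and the gene reads had a median of 965 and ran from 38 to 5351. At 589 sites the converted reads were the fewest that could be listed at that depth. The exact interval of the fraction lay wholly above 0.2% at 167 sites. Just outside the limits, 6668 sites met every other condition with 2 converted reads. At the upper limit the highest fractions inside were those of POGLUT1, an endoplasmic reticulum O-glucosyltransferase (3 of 38 reads, 7.89%), and FAM114A2 (3 of 39, 7.69%). Only 2 sites were left out for a fraction of 10% or more, with 3 converted of 17 and 3 of 15 gene reads, the latter in CHMP4C, an ESCRT-III subunit gene.

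The windows of the 3 highest fractions are shown for comparison with the deep-gene sites, because they rest on the shallowest genes.
POGLUT1: ctgtgaaattgACTgtgtccatgtg
FAM114A2: gtctttctttgACAtgttgcaaaat
JOSD1: cggtgaggggaCCGccagcggcgag
The first lies at chr3:119492762-119492786 (plus, 3'UTR), the second at chr5:153992658-153992682 (minus, 3'UTR) and the third at chr22:38700881-38700905 (minus, 5'UTR). The interval of the POGLUT1 fraction ran from 1.66% to 21.4%. JOSD1, a deubiquitinase gene, had 4 of 62 reads, 6.45% (1.79 to 15.7), in a GC-rich window with C on the 5' side. In the RBFOX2 library the gene reads were 50, 50 and 63, and an unlisted position had 0 converted reads in each. The other 9 of the 12 highest fractions lay between 3.03% and 5.66%, in RGPD5, DSCC1, ENSG00000268205, NFKB1, CETN3, PLIN2, SYF2, NAGK and AIF1L, each with 3 or 4 converted reads.

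Gene depth shaped where the sites were found. Genes with under 500 enzyme-only reads held 278 of the sites, and 235 of 7411 such genes had one, 3.17%. Of 535 genes with 500 to under 1000 reads 288 had one, 53.8%, with 594 sites. Of 138 genes with 1000 to under 1500 reads 129 had one, 93.5%, with 577 sites, and of 119 genes with 1500 reads or more 83 had one, 69.7%, with 247 sites. Per 1000 gene reads these classes held 0.279, 1.62, 3.47 and 0.422 sites. In the deepest class at least 4 converted reads are needed for listing, and in the class below exactly the 3 that the selection asks for, so the density across classes mixes editing with the listing limit.

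The base directly 5' of the edited cytosine set the sites apart from other cytosines most clearly. It was A or U at 1428 of the 1696 sites, 84.2% (82.4 to 85.9), against 46.0% of all exonic cytosines of the same genes, weighted by sites per gene. A preceded 44.4%, U 39.9%, C 10.03% and G 5.72% of the 1695 sites inside isoform exons, where the exonic cytosines gave 20.8%, 25.2%, 28.0% and 26%. On the 3' side U followed 53.4% (50.95 to 55.8), against 31.5% of exonic cytosines, and G followed 7.08% against 12.2%. From the second base outward in either direction the share of A or U stayed between 51.9% and 59.2%, each above the 47.7% to 50.6% of exonic cytosines at the same offsets. Over the 10 bases on either side, the mean share of A and U was 58.2% (SD 15.9 over 1696 sites), against 49.5% for exonic cytosines.

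**Figure D2:**
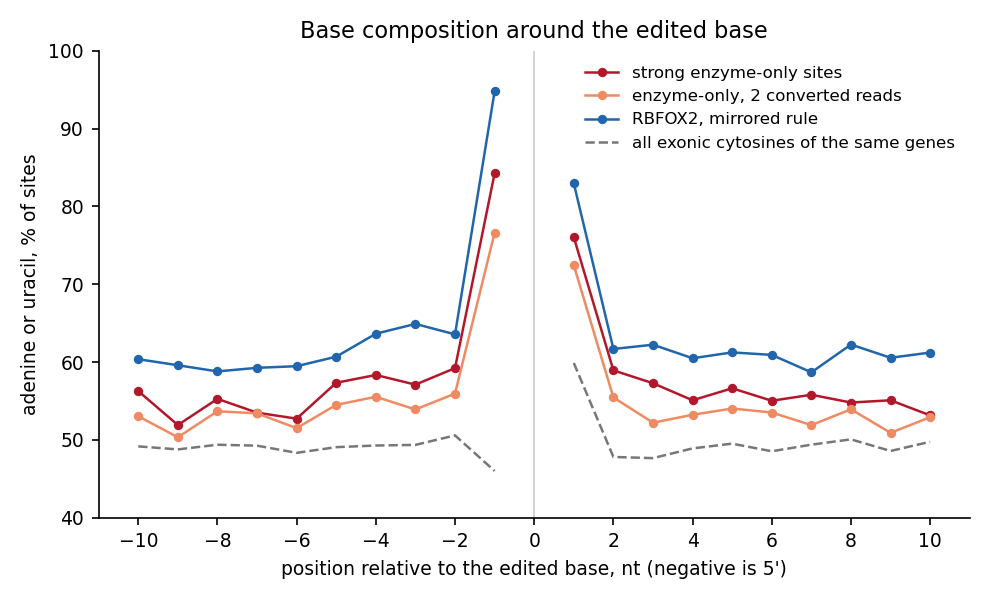
Share of sites with adenine or uracil (vertical axis, %) at each position from 10 nt 5' to 10 nt 3' of the edited base (horizontal axis), which is itself left out. The strong enzyme-only sites reach 84.2% directly 5' of the edited base, above the enzyme-only sites with 2 converted reads (76.6%) and below the RBFOX2 sites taken by the mirrored rule (94.7%), while exonic cytosines of the same genes give 46.0%.

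Among the 16 trinucleotides centred on the edited cytosine, ACU was the most frequent, at 387 sites where the exonic cytosines of the same genes would give 110, a ratio of 3.53 (interval of the count 3.22 to 3.85). UCU followed with 321 sites, a ratio of 2.20 (1.98 to 2.42), ACA with 234, a ratio of 2.04 (1.81 to 2.30), and UCC with 196, a ratio of 1.61 (1.40 to 1.83). UCA was close to its share of cytosines, with 130 sites and a ratio of 1.07 (0.899 to 1.26). At the other end, the contexts with C or G on the 5' side and A, C or G on the 3' side gave 8 to 18 sites each, at ratios from 0.0754 (CCA) to 0.182 (GCG). CCU stood apart from the other C-preceded contexts, with 134 sites and a ratio of 0.918 (0.774 to 1.08). In the 5 contexts with a ratio above 1.5 the median edit fraction lay between 0.327% (UCU) and 0.396% (ACG), close to the 0.336% of all sites.

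With 1 more base on each side, UUCUU was the most frequent pentamer, at 72 sites and a ratio of 4.42 (3.47 to 5.53). UUCUG (59 sites, 4.23), GACUU (47, 5.75), UUCCC (47, 4.45), AACUU (42, 3.95) and CCCUU (36, 3.88) followed. The 10 most frequent pentamers held 26.1% of the sites and 6.21% of the exonic cytosines. No site fell in 63 of the pentamers, which would hold 342 sites at their share of cytosines, and only 7 of those 63 have A or U on the 5' side. The pentamers were ranked by these same counts, so their order is a description.

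UUCCC and CCCUU are both junctions where a run of at least 2 C meets a run of at least 2 U, and the edited cytosine can stand at such a junction on either side. This class was defined after the pentamers were seen. It held 188 sites in 166 genes, 11.1% (9.63 to 12.7), against 4.51% of exonic cytosines. The U run lay on the 5' side at 110 sites and on the 3' side at 78, and those 78 were part of the 170 sites with C on the 5' side. Strong examples, all in abundant transcripts, show both orders.
HNRNPA2B1: cataacgttttTCCtttaaaaaaat
CFL1: cctctccctttTCCcctggtcacgg
RPLP0: caacatctcccCCTtctcctttggg
RAN: tgaaaagccctTCCtctggcttgct
They lie at chr7:26191912-26191936 (minus, 3'UTR), chr11:65854875-65854899 (minus, 3'UTR), chr12:120198647-120198671 (minus, coding sequence) and chr12:130875647-130875671 (plus, coding sequence). Converted reads were 12 of 4913 in HNRNPA2B1, 11 of 5351 in CFL1, the actin-severing protein cofilin, 10 of 4247 in RPLP0, a protein of the ribosomal stalk, and 10 of 4706 in RAN. With the junction sites left out, A or U preceded 87.4% (85.6 to 89.0) of the remaining 1508 sites.

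A run of 4 U directly beside the edited cytosine was found at 152 sites, 8.96% (7.64 to 10.4), against 2.08% of exonic cytosines. UGAU, the start of the apolipoprotein B mooring sequence, began 4 to 7 nt 3' of the edited cytosine at 39 sites, 2.30% (1.64 to 3.13), against 1.63% of exonic cytosines, so the interval of the share just cleared the value for cytosines. Among RBFOX2 sites taken by the mirrored rule the UGAU share was 2.38%, and the difference of -0.08 percentage points had a 95% interval from -0.85 to 0.83. A match of letters is a description and not a binding site.

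Next to sites with fewer converted reads, the strong sites had the sharper 5' preference. A or U preceded 62.3% (62.0 to 62.6) of the 77325 enzyme-only sites with 1 converted read and 76.5% (75.5 to 77.6) of those with 2, against 82.8%, 87.0%, 87.2% and 93.1% at 3, 4, 5 to 9 and 10 or more. The strong sites exceeded the 2-read sites by 7.65 percentage points (Newcombe 95% interval 5.58 to 9.61). Because sites with 1 read are listed only in genes under 500 reads, the comparison was repeated at equal depth. It gave 5.76 points (0.859 to 9.78) in genes under 500 reads and 10.4 points (6.94 to 13.5) in genes of 500 to under 1000 reads. ACU was likewise more frequent in the strong sites, by 7.01 points (2.00 to 12.6) and 6.86 points (3.44 to 10.6) in the same depth classes. These intervals cover counting error only, and sites of a gene share its reads. Strong here means more converted reads and not a higher edit fraction. At ACU the median fraction was 0.338% in strong, 0.485% in 2-read and 0.5525% in 1-read sites, and at UCU 0.327%, 0.427% and 0.526%. Only at CCC and GCC, with 18 and 12 strong sites, was the strong median above the 2-read median.

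**Figure D3:**
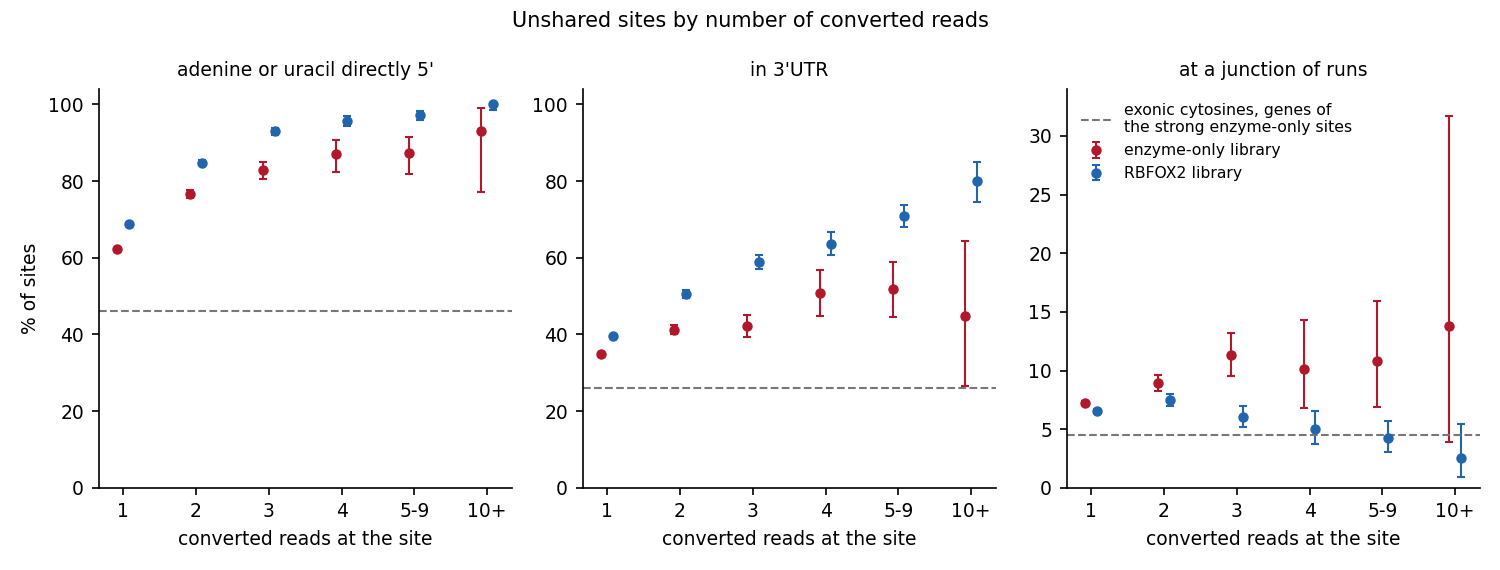
Share of sites (vertical axes, %) with adenine or uracil directly 5', in the 3'UTR, and at a junction of C and U runs, by converted reads (horizontal axes), for sites found in only 1 of the libraries; bars are exact 95% intervals and the dashed line is the share among exonic cytosines of the genes with strong enzyme-only sites. From 3 converted reads upward the 5' share rises from 82.8% to 93.1% for enzyme-only sites and from 93.0% to 100% for RBFOX2 sites.

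The mirrored rule, at least 3 converted RBFOX2 reads and no listing in the enzyme-only table, gave 5042 sites. They differed from the strong enzyme-only sites in several features. A or U preceded 94.7% (94.1 to 95.3) of them, so that the enzyme-only sites differed by -10.5 points (-12.4 to -8.74), and by -11.8 to -7.85 points within the depth classes. The share of A and U within 10 nt was 63.9% (SD 13.2), against 58.2%. Junctions of C and U runs were 5.77 points more frequent in the enzyme-only sites (4.22 to 7.46), at 11.1% against 5.32%. The difference ran from 3.30 to 8.27 points over the depth classes. The junction class was defined from the pentamers of these same enzyme-only sites, so this difference is a description. Among the mirrored RBFOX2 sites the junction share fell from 6.03% at 3 converted reads to 2.54% at 10 or more, the latter 6 of 236 sites. Among the strong enzyme-only sites it lay between 10.1% and 13.8% over the same classes. The 13.8%, at 10 or more converted reads, rests on 4 of 29 sites (3.89 to 31.7). The 1491 enzyme-only sites of the same strength that the RBFOX2 table also listed had junctions at 6.24% (5.06 to 7.59). The selection leaves those sites out, so it can itself raise the junction share of the strong enzyme-only sites. U on the 3' side (53.4% and 52.0%) and the run of 4 U (8.96% and 7.75%) differed by 1.40 points (-1.35 to 4.14) and 1.21 points (-0.277 to 2.82), intervals that include 0. Within depth classes most of these intervals also included 0, except for U on the 3' side in genes of 1500 reads or more, at 8.603 points (1.501 to 15.48), and for the run of 4 U in genes of 500 to under 1000 reads, at 3.06 points (0.456 to 6.01).

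UGCAUG within 50 nt, the RBFOX2 motif, was found at 26 of the 1696 sites, 1.53% (1.00 to 2.24). Exonic cytosines of the same genes gave 2.32%, and enzyme-only sites with 2 converted reads gave 2.20% (1.87 to 2.59). The difference from the 2-read sites was -0.67 points, with an interval from -1.29 to 0.10 that includes 0. Mirrored RBFOX2 sites had it at 8.95% (8.17 to 9.77). The selection leaves out positions listed in the RBFOX2 table, so it can itself lower this share. Of the enzyme-only sites of the same strength that the RBFOX2 table did list, 1491 in number, 4.23% (3.26 to 5.37) lay near the motif.

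A position of the RBFOX2 table lay within 10 nt on the same strand at 387 of the 1696 sites, 22.8% (20.8 to 24.9). Of the exonic cytosines of the same genes 10.2% had one, a ratio of 2.23. Among strong sites with A or U on the 5' side it was 24.1%, against 12.7% of such cytosines, a ratio of 1.90. With any 5' base, the share was 23.4% (22.4 to 24.5) for 2-read and 19.8% (19.5 to 20.1) for 1-read enzyme-only sites. The cytosines of their genes gave 14.3% and 14.6%, ratios of 1.65 and 1.37. Every enzyme-only set here leaves out the positions listed in the RBFOX2 table, while the exonic cytosines include them. At equal depth the strong sites exceeded the 2-read sites by 5.60 points (0.0995 to 11.5) in genes under 500 reads and 8.19 points (4.52 to 12.1) in genes of 500 to under 1000 reads. The pooled difference of -0.61 points (-2.80 to 1.68) has the opposite sign. Genes of 1000 reads or more, which can list no 2-read site, gave 16.3% below 1500 reads and 16.6% above. At the strongest HNRNPA2B1 site, for example, the nearest RBFOX2 position was 2 nt away, and at the NPM1 site 2160 nt away along the genome. The strong sites had another of their own kind within 50 nt at 350 sites, 20.6%, against 2498 of the mirrored RBFOX2 sites, 49.5%, in the larger set.

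By region, 848 sites lay in coding sequence (50%), 761 in 3'UTR (44.9%, 42.5 to 47.3), 72 in 5'UTR (4.25%), 9 in non-coding exons and 5 in introns, with 1 outside annotated genes. Protein-coding genes held 1685 of them and long non-coding RNA genes 9. No site lay on the mitochondrial genome, where the enzyme-only table listed 10 positions. Calling 3'UTR before coding sequence, for positions that different transcripts annotate differently, raised the 3'UTR share to 62.8%, while the canonical transcript alone gave 43.9%.

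Isoform models include unspliced and rarely used exons, so 3'UTR and coding sequence were compared with each other. Of the 1609 sites in either, 47.3% (44.8 to 49.8) lay in 3'UTR, against 42.9% of the cytosines there. Among those with A or U on the 5' side the share was 47.7% (45.0 to 50.4), against 47.6% of cytosines with the same 5' base. With the 5' base taken into account, the strong sites that the selection kept, pooled over converted reads, were thus divided between 3'UTR and coding sequence like the cytosines themselves. Over all regions and 5' bases, the 3'UTR share was 42.3% (39.5 to 45.2) at 3 converted reads and 50.9% (44.85 to 56.9) at 4. It was 51.7% (44.6 to 58.8) at 5 to 9 and 44.8% (26.45 to 64.3) at 10 or more. These classes were not set against cytosines of their own genes. The mirrored RBFOX2 sites with A or U on the 5' side lay in 3'UTR at 65.1% (63.7 to 66.5), against 50.9% of such cytosines, from which the enzyme-only sites differed by -17.4 points (-20.4 to -14.5). Sites of both tables with at least 3 converted enzyme-only reads and A or U on the 5' side were at 67.7% (65.0 to 70.4). Such cytosines of their genes were at 52.9%. The selection leaves those sites out, so it can itself lower the 3'UTR share of the strong enzyme-only sites.

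The 5' preference held in both regions. A or U preceded 84.8% (82.2 to 87.1) of the sites in coding sequence, where 45.3% of cytosines have it, and 86.1% (83.4 to 88.5) of those in 3'UTR, where 53.2% do. In the 2-read sites the values were 74.4% and 81.3%. In the 89 genes with at least 5 strong sites, the share with A or U on the 5' side had a median of 85.7% and ran from 14.3% to 100%.

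**Figure D4:**
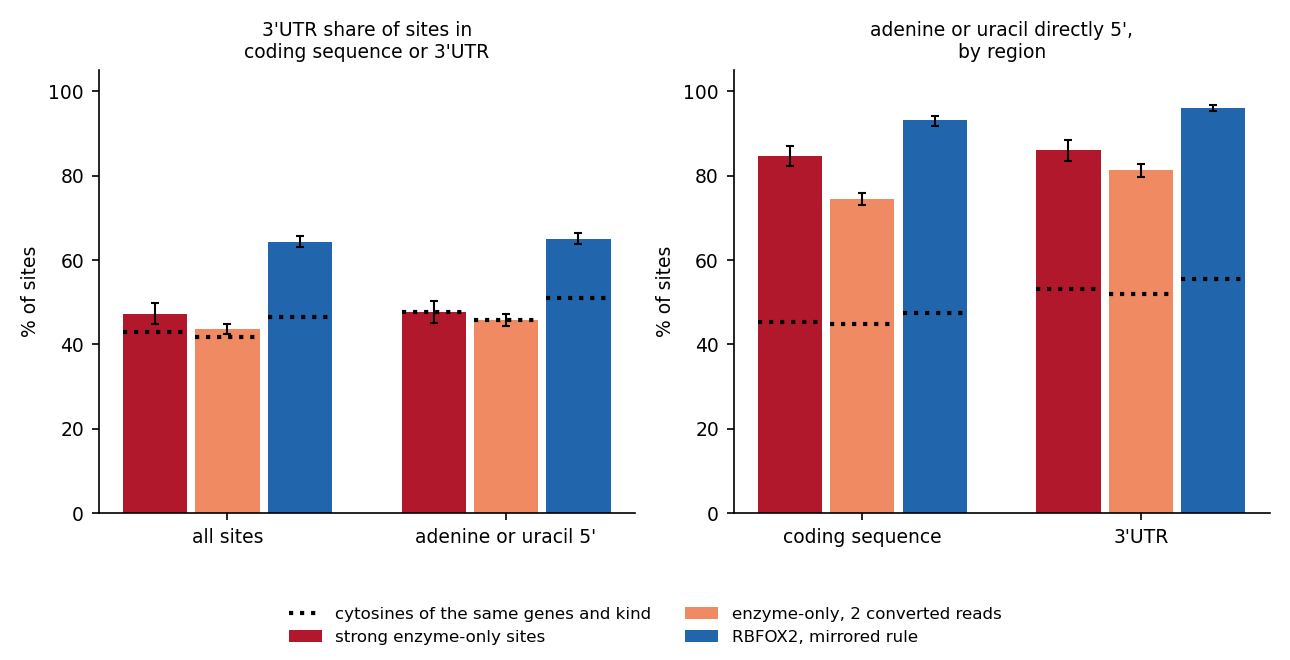
Left, share of sites in 3'UTR (vertical axis, %) among sites in coding sequence or 3'UTR, for all of them and for those with adenine or uracil directly 5'; right, share with adenine or uracil directly 5' (vertical axis, %) in each region; error bars are exact 95% intervals and dotted lines the cytosines of the same genes. The strong enzyme-only sites meet the dotted line on the left once the 5' base is matched (47.7% against 47.6%), and the RBFOX2 sites of the mirrored rule lie above it (65.1% against 50.9%).

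Within canonical transcripts, the 743 sites in 3'UTRs had a median place of 0.323 when the cytosines of the 3'UTR were ranked from stop codon (0) to end (1), and 51.01% lay in the first of 3 equal parts. The 809 sites in coding sequence had a median place of 0.628, and 46.0% lay in the last of 3 equal parts. Mirrored RBFOX2 sites had similar values, 0.291 and 0.628.

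Of 806 sites in the canonical coding sequence, converting C to U would leave the amino acid as it is at 387 (48.0%, 44.5 to 51.5), change it at 384 (47.6%) and create a stop codon at 35 (4.34%, 3.04 to 5.99). Over all coding cytosines of the same genes the shares were 42.6%, 50.3% and 7.12%. These cytosines were not matched for the bases on either side, and whether those bases lower the stop share was not tested. The stop-creating site with the most converted reads was in PDIA6, a protein disulfide isomerase, with 8 of 2265 gene reads, followed by CCT6A, a chaperonin subunit, with 5 of 1626, and FKBP1A, the FK506-binding prolyl isomerase, with 5 of 1676. Fractions at these 3 sites lay between 0.298% and 0.353%.

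Folding of each site with the 50 nt on either side, on the genome strand, placed the edited cytosine in unpaired positions with a mean probability of 0.489 (SD 0.377 over 1696 sites). At the 1466 sites whose window holds another cytosine within 20 nt with the same 5' base, the edited one was more open by 0.042 on average (SD 0.445, median 0.008), and was the more open at 51.9% of them (49.3 to 54.5). The mean difference was 0.000228 over the 232 sites that had 5 or more converted reads. The mean difference was 0.026 for the 2-read sites and 0.029 for the mirrored RBFOX2 sites. Single sites covered the whole range, from 0.997 at NPM1 and 0.993 at YBX1 to 0.022 at the strongest H3-3B site. Predicted pairing thus separated the edited from neighbouring cytosines little, compared with the spread between sites.

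PTGES3, encoding the HSP90 co-chaperone p23, held the most strong sites. It had 22 of them at 1487 enzyme-only reads, of which 11 lay in 3'UTR, 6 in coding sequence and 5 in 5'UTR, with 3 to 5 converted reads each. A or U preceded 17 of the 22, and the other 5 had C or G, 3 of them in the 5'UTR. Windows of its 3 sites with 5 converted reads and of 2 of its 5'UTR sites show this contrast.
PTGES3 site 1: aagaaagctgtACAttgttgcttga
PTGES3 site 2: agaatgccctaACTtagatggtttt
PTGES3 site 3: gagttgatagcTCTaaaggcagata
PTGES3 5'UTR site 1: gaagtcgactcCCTagcagcagccg
PTGES3 5'UTR site 2: ccgccgctgccGCCgtcgcctgagg
On the minus strand these lie at chr12:56663797-56663821, chr12:56663885-56663909, chr12:56664379-56664403, chr12:56688051-56688075 and chr12:56688128-56688152. In the RBFOX2 library PTGES3 had 1692 reads, 20 sites by the mirrored rule and 13 sites listed in both tables. With 4 converted reads needed for listing there and 3 in the enzyme-only library, a counterpart with exactly 3 converted RBFOX2 reads would have gone unlisted.

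The 12 genes with the most sites held 150 of them, 8.84%. After PTGES3 came SRSF2, an SR-family splicing factor, with 14 sites at 1469 reads, 12 of them in 3'UTR. TSPAN3, a tetraspanin, and YWHAZ, a 14-3-3 protein, had 13 each, and MORF4L1, a chromatin adaptor, had 12. PSMB5, the chymotrypsin-like subunit of the proteasome, also had 12 at 1040 reads, all with A or U on the 5' side. CDC42, a regulator of cell polarity, GLO1, glyoxalase 1, PLS3, an actin bundler, and SUMO3, a ubiquitin-like modifier, had 11 each. CCT4, a chaperonin subunit, had 10, as did MCM7, MRFAP1 and RBBP4. Enzyme-only reads of the 12 lay between 866 and 1939, depths at which 2 to 4 converted reads suffice for listing.

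Genes differed in how their sites fell between the libraries. PSMB5 had 12 strong enzyme-only sites and 2 by the mirrored rule, at 1040 and 1227 reads and the same minimum of 3 converted reads in both. MCM7, a subunit of the replicative helicase, had 10 and 2 at 1260 and 1266 reads, again with a minimum of 3 in both. HNRNPA2B1, an RNA-binding protein that acts in splicing, had 9 and 3, with minimums of 10 and 11. PLS3 had 11 and 28, CCT4 10 and 25 and YWHAZ 13 and 24, all with equal minimums. Mirrored sites were the more numerous in general. Genes of at least 1000 enzyme-only reads with equal minimums held 522 strong enzyme-only and 1365 mirrored sites. More mirrored than strong sites in PLS3, CCT4 and YWHAZ is therefore no lean beyond that general excess. PSMB5 and MCM7 were picked out after their counts were seen, and with 1 library per group these counts have no replicate check.

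**Figure D5:**
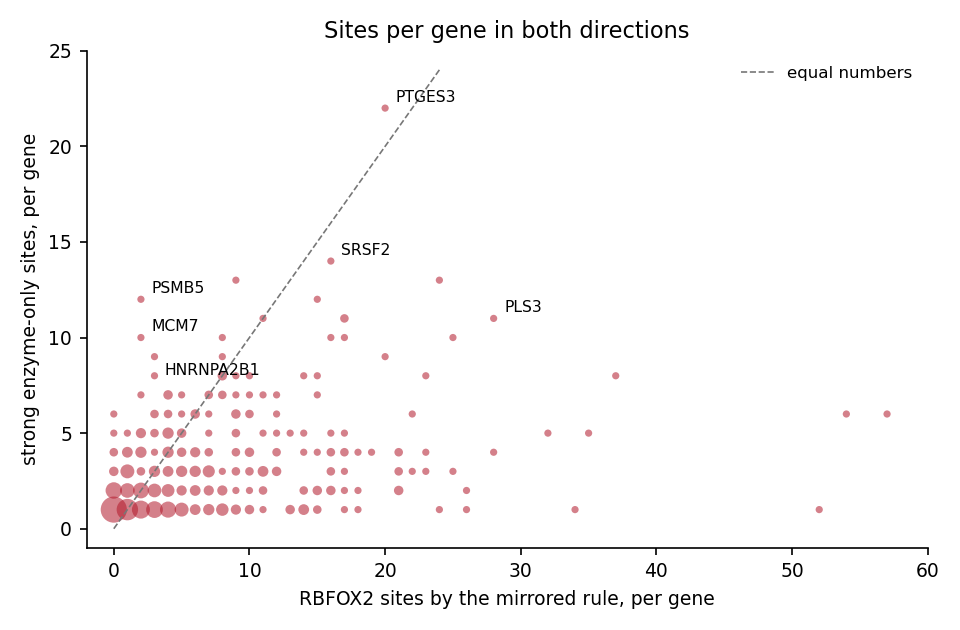
Number of strong enzyme-only sites (vertical axis) against number of RBFOX2 sites by the mirrored rule (horizontal axis) for the 735 genes with at least 1 strong enzyme-only site; larger points hold more genes and the dashed line marks equal numbers. PSMB5 (12 and 2), MCM7 (10 and 2) and HNRNPA2B1 (9 and 3) lie above the line and PLS3 (11 and 28) well below it. The line is not the general ratio, as there were 5042 mirrored and 1696 strong enzyme-only sites in all.

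Of the 735 genes, 283 had more strong enzyme-only sites than mirrored RBFOX2 sites, 125 as many and 327 fewer. Each was taken for having a strong enzyme-only site, so the tally leans to that library by construction. The 735 genes held 3316 of the 5042 mirrored sites, and genes with mirrored sites only are not in the tally. In 207 of the 735, with 255 sites, the RBFOX2 table had none by the mirrored rule, while the other 528 had both. A single strong site was found in 402 genes and 5 or more in 89, which held 639 of the sites. Of 257 genes with at least 1000 enzyme-only reads, 45 had none. In the 167 such genes where both libraries required the same minimum, there were 522 strong enzyme-only sites and 1365 mirrored RBFOX2 sites.

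Gene lists chosen by function were read against the share of genes with a site at the same depth. All 8 loci of SR splicing factors in both tables had a site, against 69.7% at their depth, with 36 sites against the 17.9 that the mean of their depth classes would give. SRSF2 and SRSF3 (5 sites at 1971 reads) had the most. Heterogeneous nuclear ribonucleoproteins had a site at 15 of 20 loci (75% against 62.1%), with 59 sites against 42.2, led by HNRNPA2B1 and by HNRNPK with 7. Chaperones had a site at 11 of 17 loci (64.7% against 59.4%), with 44 sites against 32.6, among them CCT4 and CCT5 with 10 and 8. Replication and cell cycle genes had 7 of 14 (50% against 34.95%), with 22 sites against 12.2, of which MCM7 gave 10 and PCNA, the replication clamp, 5.

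Cytosolic ribosomal proteins went the other way, with a site at 18 of 48 loci (37.5% against 44.2%) and 26 sites against 61.8. Their highest count was 3, in RPL10A at 1212 reads and RPL23A at 894. Nuclear-encoded ATP synthase and cytochrome c oxidase subunits had 8 of 21 loci (38.1% against 43.1%) and 18 sites against 30.9, with 4 each in ATP5F1B and ATP5PB. Sites were counted per gene and not per length. Proteasome subunits (16 of 29, 49 sites against 40.9, led by PSMB5 and PSMD6), translation factors (10 of 25, 26 against 31.2, led by EIF3L and EIF2S2), cytoskeletal genes (5 of 14, 11 against 16.04, led by MYL6 and TUBG1), glycolytic enzymes (4 of 12, 10 against 12.8, led by PGK1 and LDHB) and cholesterol synthesis enzymes (4 of 19, 11 against 8.07, led by IDI1 and FDPS) made up the other lists. Neither of 2 mitochondrially encoded loci had a site, but at their median of 119117 reads the listing limit of 0.2% asks for far more converted reads than the highest count at a strong site, 16, so nothing is read from this 0. There was also no site in the only gene of the list of C-to-U editing factors present in both tables. At its depth 53.8% of genes had one, with 1.11 sites at the mean of its depth class, so nothing is read from this single gene. It had 4 mirrored sites. The lists were chosen with earlier results of these data known, so nothing is called particular to any of them.

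APP, a known RBFOX2 target, had no strong enzyme-only site at 630 reads, 2 mirrored RBFOX2 sites at 637 reads and 1 site in both tables. RBFOX2 itself had no site of either kind at 221 and 247 reads, and 1 site in both tables. Of genes with 500 to under 1000 enzyme-only reads 53.8% had a strong enzyme-only site, and of genes under 500 reads 3.17%. The 535 genes in the depth class of APP held 1910 mirrored sites. Nothing is read from the counts of these 2 genes.

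Near-identical copies elsewhere in the genome could carry a T at the edited position, so the sequence around each site was searched. A copy of at least 80 nt at 95% identity or more was found for 345 sites, 20.3%. At 23 of those the copy had T at the edited position, 6.67% (4.27 to 9.84), and at other cytosines of the same windows a copy had T at 4.90%. Of the 29 sites with 10 or more converted reads 7 had a copy, and none of those 7 had a copy with T. Leaving the 23 sites out kept each recomputed share within its interval.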

How the data were processed

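Edit sites of 1 enzyme-only and 1 RBFOX2 library were analysed, grouped by their descriptions in the labels. Per the methods of the study, full-length reads were aligned to hg38 with pbmm2 and C-to-U edits were called with custom code. The labels name another kit (Iso-Seq) than those methods, so the tables may come from another run. The submitters' processing notes name hg38. For each site the authors deposited a count of converted reads, a count of reads of the whole gene, and an edit fraction equal to their quotient, which understates editing at positions absent from some isoforms. A confidence score, deposited by the authors, was not used. Isoform models, deposited without expression values, gave the exons.

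Where a position and strand was listed more than once, only the row with the most converted reads was kept. The 213041 positions were checked to be cytosines of the listed strand. The study's removal of annotated variants was not repeated. Symbols and regions came from GENCODE 44 (coding sequence taken first where transcripts disagree, 3'UTR next, introns last). Expected shares are means over all cytosines in the merged isoform exons of each site's gene, with each gene weighted by its sites. A check on simulated draws took these expected shares as given, so it did not test how they were computed. Folding used ViennaRNA 2.7.2 on 50 nt on either side of the site. Copies were sought with BLAST 2.17.0 (word size 32). Shares carry exact Clopper-Pearson 95% intervals and differences Newcombe intervals (scipy 1.17.1). Both cover counting error only, as no molecular identifiers were counted and sites of a gene share reads. No p-value was computed, each group being 1 library.

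The genes with the most sites, the sites with the most converted reads or the highest fractions, and 2 genes per list were named, with APP and RBFOX2. The values of 1 of the 12 genes with the most sites are not reported here. The site selection, lists and rules were chosen with earlier results of these data known.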

Additional observations from a re-analysis of the deposited data

How the results depend on the processing

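No paired analysis was possible because each group had 1 library and the labels number them 1 and 2. Of 99 recomputed values none changed direction, 70 stayed within the interval or 1.5 times the original and 29 moved. Requiring at least 4 or at least 5 converted reads left 509 or 232 sites, with A or U 5' at 87.4% or 87.9%, 3'UTR at 50.9% in both, A and U within 10 nt at 60.2% or 59.0% and 63 or 37 listed genes with a site, from 106, and at 5 or more the difference in unpaired probability fell from 0.0425 to 0.000228. With 1 site per gene 735 remained, and all shares stayed. Limiting genes to 500 reads or fewer in each library left 226 sites, with A or U 5' at 86.3%, 3'UTR at 41.2%, UGCAUG at 2.65%, A and U at 59.4% and 5 listed genes. Some alternatives were chosen after seeing the data. Among these, leaving out run junctions gave A or U 5' at 87.4%, and keeping intervals wholly above 0.2% left 167 sites, with 3'UTR at 49.1%, A and U at 59.5% and 7 listed genes. Without sites that have an RBFOX2 position within 10 nt, 3'UTR was 40.7% and A and U 56.7%. Calling 3'UTR before coding sequence gave 62.8%. Windows of 20 and 200 nt for UGCAUG gave 0.531% and 8.49%, and 50 nt for A and U gave 55.4%. Counts of sites in the 12 named genes stayed in 88 of 144 recomputations. Depth limits most sites to 3 converted reads, and single fractions are known to within several fold.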
